A study of Mus musculus with 4 samples.

Results

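Alveolar type 2 (AT2) cells of 12-month and 3-month mice were compared 30 days after bleomycin. The cells were chosen as barcodes with at least 500 genes, at most 20% mitochondrial counts and Sftpc at 5% or more of the cell's unique molecular identifiers (UMIs), which count captured RNA molecules. These rules kept 2299 cells of the 3-month bleomycin library and 2450 of the 12-month bleomycin library, 4749 of the 10911 barcodes in all 4 libraries. All mice carried Sftpc-creER and Rosa26-mTmG: tamoxifen, given to every group, activates the Cre recombinase in cells that use the Sftpc promoter, and membrane GFP then marks these cells and all that arise from them. The sort took GFP-positive lung cells and left out those with CD45, a leukocyte surface protein, or CD31, an endothelial one. Bleomycin, a DNA-damaging drug that injures the alveolar lining, was instilled into the trachea as a single dose of 0.8 U/kg in mice aged 3 or 12 months, and their lungs were taken at day 30. The matching groups received PBS and are labelled day 0. Each group is 1 library made from 3 pooled mice. Age, library and pool therefore cannot be told apart, no p-value is given, and the bracketed 95% intervals reflect counting error alone. They are exact, except those of differences between bleomycin and PBS ratios, which use a normal approximation. A descendant that had lost most Sftpc was not a member, and a lower level of a gene cannot be told apart from fewer cells that express it in the summed values.

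AT2 cells make and recycle surfactant, the lipid and protein film that keeps alveoli open, and act as progenitors that renew the alveolar lining after injury. They also present antigen: class I MHC molecules show peptides from inside the cell, class II molecules show peptides taken up from outside, and AT2 cells are among the epithelial cells that carry class II. Interferons are cytokines that act through STAT and IRF transcription factors and switch on antiviral genes and genes of the class I pathway. Interferon gamma also acts on immunity-related GTPases and on class II genes.

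Of 4586 genes that reached 20 CPM (counts of a gene per 1000000 UMIs of the summed cells) in either bleomycin library, 97 (2.12%) were at least 2-fold higher in the 12-month library and 21 (0.458%) at least 2-fold lower. At 1.5-fold the counts were 212 (4.62%) and 130 (2.83%). The median log2 ratio was 0.00, and 3439 genes (75.0%) lay within 0.3 of 0. Genes of the interferon-stimulated, GTPase, MHC class I and MHC class II lists made up 29 of the 97 higher genes. Of all 4586 genes, 15, 4, 16 and 7 belonged to these lists. With so few listed genes, their absence from the 21 lower ones says little. Of the 97, 54 reached 20 CPM in the 12-month library alone, so that they could pass the minimum only by being higher there. The lower genes were led by Cox6a2, Dbp and Cbr2 and include at most 1 gene of any list.

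**Figure D1:**
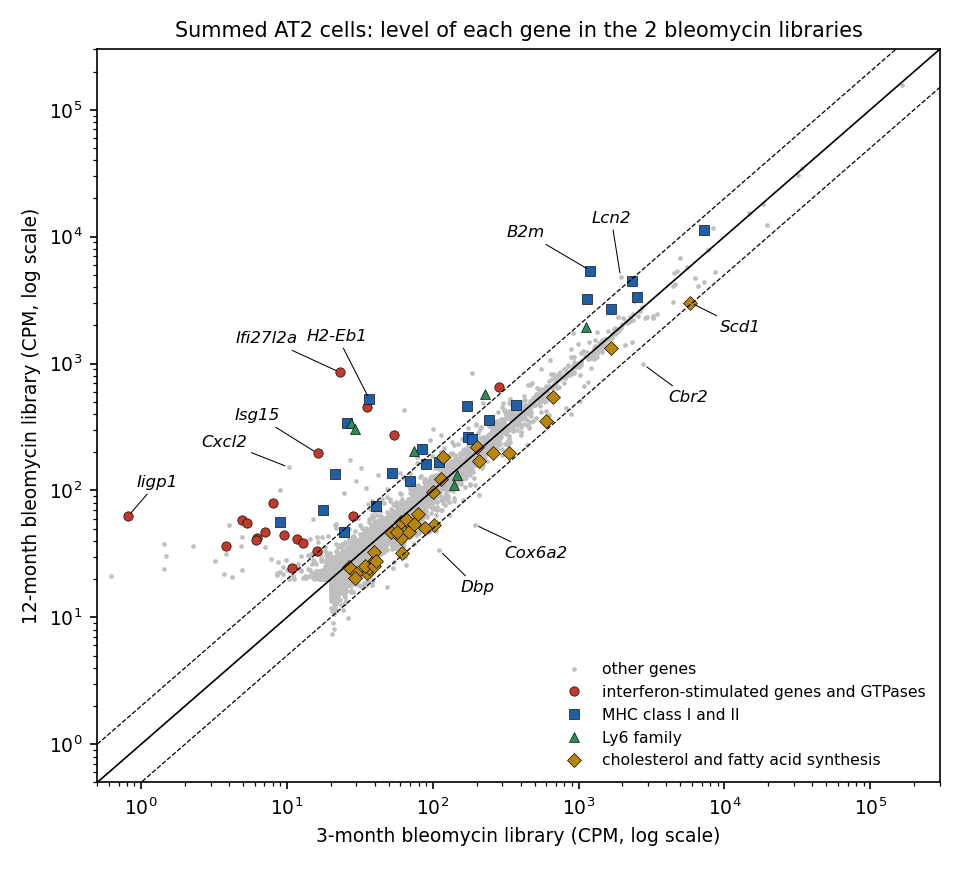
Each point is a gene at 20 CPM or more in either library, with its level in the summed AT2 cells of the 3-month (x) and 12-month (y) bleomycin library, both in CPM on log axes; the solid line marks equal levels and the dashed lines 2-fold. Interferon-stimulated genes and GTPases lie above the upper dashed line and MHC genes above the solid line, while most genes of cholesterol and fatty acid synthesis lie below it.

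The libraries differed in depth and in traces of other cells. The summed cells held 20832613 UMIs at 3 months and 31849343 at 12 months, with medians of 8552 and 12520 UMIs and 3.44% and 2.19% mitochondrial counts per cell. The gate gene Sftpc, encoding surfactant protein C, had medians of 16.8% and 16.3% of UMIs and is not a result. At least 8 of 10 AT2 markers were found in 99.6% of the cells of both libraries (99.3 to 99.8, Clopper-Pearson). The gate gene Sftpc is among the 10, and the counts were not thinned. A UMI of Sftpc was also found in 100% of the ciliated cells below the gate. The share is therefore no test of AT2 identity. Just below the gate, at 4 to 5% Sftpc, lay 16 and 26 cells, and just inside it, at 5 to 6%, 23 and 39. The bleomycin libraries shared 12 barcodes, 10 of them among the chosen cells.

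Markers of blood cells were higher in the 12-month bleomycin cells. Summed macrophage markers stood at 30.001 CPM at 3 months and 119.7 at 12 months, neutrophil markers at 7.97 and 112.0, and T or NK markers at 4.42 and 54.1. B or plasma cell markers stood at 42.8 and 145.8 CPM, and general leukocyte markers, Ptprc among them, at 3.50 and 19.6. All 11 macrophage, 4 neutrophil, 6 T or NK, 5 B or plasma and 3 leukocyte markers were higher at 12 months; Marco, a macrophage scavenger receptor, was at 0 in the 3-month library. Mesenchymal markers summed to 15.4 and 27.2 CPM, endothelial markers to 10.4 and 6.62, ciliated markers to 227.0 and 120.2 and club cell markers to 4702 and 5410. At least 3 macrophage markers were found in 5 cells at 3 months (0.217%, 0.0707 to 0.507) and 214 at 12 months (8.73%, 7.65 to 9.92). For club cell markers these were 546 (23.7%) and 756 cells (30.9%), and for ciliated markers 116 and 61. Neutrophil markers gave 0 and 59 cells, B or plasma cell markers 0 and 57, and T or NK markers 1 and 25. These counts were not thinned to equal depth, and the deeper 12-month cells can reach 3 markers more easily.

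**Figure D2:**
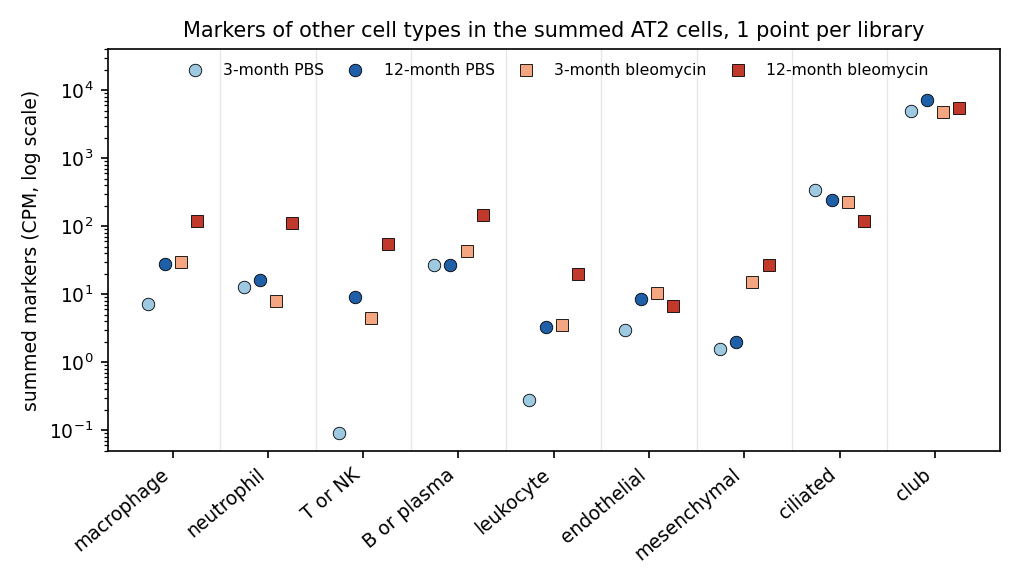
Summed level of the markers of 9 other cell types (CPM, log axis) in the summed AT2 cells of the 4 libraries, 1 point per library. The 12-month bleomycin library is the highest for macrophage, neutrophil, T or NK, B or plasma and leukocyte markers, at 119.7, 112.0, 54.1, 145.8 and 19.6 CPM.

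Among the 97 higher genes, 8 are themselves such markers, namely S100a8, S100a9, Retnlg, Ccl5, Jchain, Tyrobp, Fcer1g and the club marker Cyp2f2. Free RNA in droplets can give UMIs to cells that do not express a gene, so ciliated cells below the Sftpc gate of the same libraries were used as a reference, a choice made after the values were seen. They numbered 60 at 3 months and 47 at 12 months, with medians of 7301 and 9097 UMIs. Thinned to 3000 UMIs, 22.5% of the 12-month AT2 cells held a UMI of the plasma cell gene Jchain (64.1% before thinning) and 25.5% of the ciliated cells (13.9 to 40.3). S100a8, a neutrophil gene, was found in 8.57% of AT2 cells (30.3% before thinning) and 8.51% of ciliated cells (2.37 to 20.4). Ccl5, a T cell chemokine, was found in 8.78% and 17.02% (7.65 to 30.8), or in 30.1% of AT2 cells before thinning. Tyrobp was found in 7.96% and 10.6% (3.55 to 23.1), Fcer1g in 5.18% and 6.38% (1.34 to 17.5), Retnlg in 4.78% and 8.51% (2.37 to 20.4), and S100a9 in 7.02% and 4.26% (0.520 to 14.5). No AT2 share of these blood cell markers exceeded the upper bound of the ciliated share, a wide bound with 47 cells. These markers were not read as expressed by AT2 cells. Cyp2f2 was not compared. Sftpc itself made up a median of 1.39% of UMIs in the 12-month ciliated cells.

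Interferon-stimulated genes had the highest median ratio of the pathway lists; the neutrophil and T or NK markers above had higher ones. All 26 listed genes were higher in the 12-month library, from a log2 ratio of 0.49 for Stat2 to 5.21 for Ifi27l2a, while 6776 of all 13782 genes with at least 10 UMIs were higher. Only 5 of them reached 20 CPM in the 3-month library, 15 did at 12 months, and those 15 were all at least 2-fold higher with a median log2 ratio of 2.73. Their summed level was 536 CPM at 3 months and 3011 at 12 months. With PBS the list summed to 281 and 463 CPM.

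Ifi27l2a, an interferon-induced gene of the Ifi27 family (chromosome 12, 103442167 to 103443680, GRCm38), had 23.7 CPM in the 3-month PBS library, 68.9 (64.5 to 73.5) in 12-month PBS, 23.1 (21.1 to 25.2) in 3-month bleomycin and 853 (843 to 863) in 12-month bleomycin. It was 36.9-fold higher at 12 months with bleomycin (33.7 to 40.5). The other 3 libraries lay below 70 CPM. Ifitm3, encoding an antiviral membrane protein (chromosome 7, 141009586 to 141010770), had 8.08, 16.3, 35.2 and 455 CPM in the same order and was 12.9-fold higher (12.0 to 13.9). Isg15, the ubiquitin-like modifier that is attached to proteins in the interferon response (chromosome 4, 156199424 to 156200818), had 6.42, 6.55, 16.2 and 196 CPM and was 12.1-fold higher (10.8 to 13.5). In contrast to its bleomycin ratio, the Isg15 level was nearly equal in the PBS libraries: the log2 ratio with bleomycin exceeded that with PBS by 3.57 (3.09 to 4.05). Irf7, a transcription factor that amplifies the response, had 1.19, 3.31, 4.94 and 58.9 CPM. It was 11.9-fold higher (9.77 to 14.7).

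The remaining interferon genes spanned sensors, effectors and regulators, and each named here was higher at 12 months. The oligoadenylate synthetase genes Oasl2 and Oas1a, which belong to an RNA-sensing family, stood at 3.84 and 36.8 CPM and at 7.06 and 46.7 CPM in the 3-month and 12-month bleomycin libraries. Zbp1, a nucleic acid sensor, stood at 6.24 and 42.3 CPM, and Usp18, which removes Isg15 and dampens receptor signalling, at 6.14 and 41.0. Rtp4, an interferon-induced gene, stood at 8.06 and 79.3 CPM, and Bst2, which tethers budding virus, at 53.9 and 273. Irf9, a DNA-binding factor of the response, had a smaller ratio, at 10.9 and 24.3 CPM (2.23-fold).

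Immunity-related GTPases, which attack the vacuoles of intracellular microbes, followed the same order. All 13 listed genes with at least 10 UMIs were higher, although only 4 reached 20 CPM, each in the 12-month library alone. Iigp1 had 0 UMIs in the 3-month PBS library, where 0 UMIs allow up to 0.275 CPM by a floor of 3 UMIs, and 0.527 CPM in 12-month PBS. It had 0.816 CPM (0.475 to 1.31, 17 UMIs) in 3-month bleomycin and 62.8 (60.1 to 65.6) in 12-month bleomycin. The last was 77.0-fold higher than the 3-month value (48.0 to 132). Igtp had 2.11, 3.46, 5.33 and 55.8 CPM across 3-month PBS, 12-month PBS, 3-month bleomycin and 12-month bleomycin, and was 10.5-fold higher (8.64 to 12.8). Irgm1 had 9.73, 12.5, 12.9 and 38.7 CPM, a smaller ratio of 3.00 (2.63 to 3.43). Irf1, the transcription factor listed with them, had 15.7, 15.3, 16.03 and 33.5 CPM. Its level differed little between 3 of the libraries and was 2.09-fold higher in 12-month than in 3-month bleomycin cells (1.84 to 2.37).

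**Figure D3:**
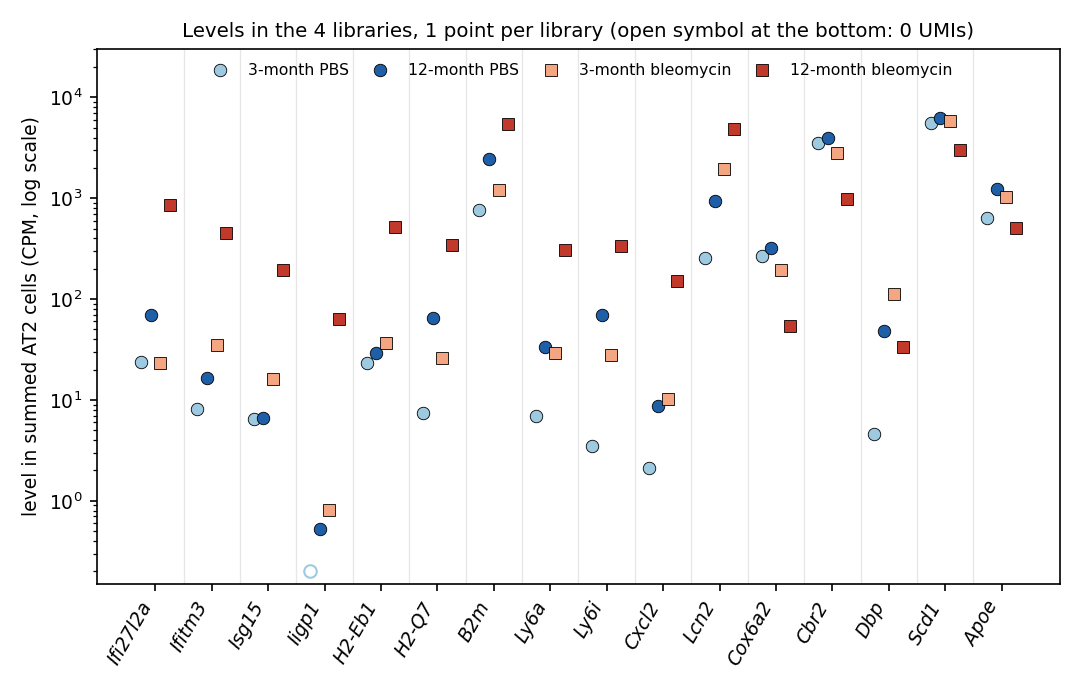
Level of 16 genes in the summed AT2 cells (CPM, log axis), 1 point for each of the 4 libraries; the open symbol stands for 0 UMIs. For Ifi27l2a, Ifitm3, Isg15, Iigp1 and H2-Eb1 the 12-month bleomycin library stands apart above the other libraries, while Cox6a2, Cbr2, Scd1 and Apoe are lowest there.

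The promoters of the interferon, MHC and cholesterol genes were searched for short letter patterns in RefSeq promoter windows (GRCm38.p6, 250 bases before to 50 after each start). The patterns were the core of the interferon-stimulated response element (GAAANNGAA), the gamma-activated site (TTCNNNGAA) and a sterol element (TCACNCCAC), on both strands. The response element core was found in 12 of the 18 matched interferon-stimulated genes (66.7%), 9 of 10 GTPase list genes (90%), 5 of 17 class I genes (29.4%) and 0 of 5 class II genes, against 9.76% of all 27025 genes of the table. The gamma-activated site was found in 5, 7, 2 and 1 of the same genes, against 9.55% of all genes. A match is a description of letters and not of binding. Shown are the 250 bases before the start, 5′ to 3′ on the gene's strand, for the 4 genes of these lists with the most UMIs in the bleomycin libraries among named genes with a match. Capitals mark the match, which in H2-T22 lies on the opposite strand. B2m (chr2:122147437-122147686, plus strand) has the response element core at -139 to -131 from the start. Isg15 (chr4:156200819-156201068, minus strand) has 3 overlapping cores between -78 and -58. H2-DMb2 (chr17:34144999-34145248, plus strand) has a gamma-activated site at -218 to -210 and H2-T22 (chr17:36042743-36042992, minus strand) a core at -190 to -182.
B2m: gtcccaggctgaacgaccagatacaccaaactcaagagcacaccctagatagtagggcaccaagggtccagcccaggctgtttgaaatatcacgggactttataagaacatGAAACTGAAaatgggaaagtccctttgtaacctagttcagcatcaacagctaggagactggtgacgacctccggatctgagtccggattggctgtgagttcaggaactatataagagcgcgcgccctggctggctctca
Isg15: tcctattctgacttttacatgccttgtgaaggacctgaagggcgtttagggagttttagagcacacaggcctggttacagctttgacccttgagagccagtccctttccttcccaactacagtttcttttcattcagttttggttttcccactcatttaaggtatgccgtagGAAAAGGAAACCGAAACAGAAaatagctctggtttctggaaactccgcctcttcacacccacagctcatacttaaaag
H2-DMb2: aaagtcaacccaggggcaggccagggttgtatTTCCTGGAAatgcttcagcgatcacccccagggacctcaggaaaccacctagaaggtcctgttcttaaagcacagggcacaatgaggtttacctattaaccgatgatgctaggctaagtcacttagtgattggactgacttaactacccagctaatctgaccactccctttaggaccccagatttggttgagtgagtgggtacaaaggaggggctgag
H2-T22: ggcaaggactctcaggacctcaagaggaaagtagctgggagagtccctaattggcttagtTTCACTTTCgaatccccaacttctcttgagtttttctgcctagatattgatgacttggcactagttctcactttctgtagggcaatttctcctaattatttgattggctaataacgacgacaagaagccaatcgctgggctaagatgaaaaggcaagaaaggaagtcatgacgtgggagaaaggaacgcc

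MHC class I genes and the genes that cut and load their peptides were higher as a group, and this was seen with PBS as well. All 19 listed genes were higher at 12 months with bleomycin. Of the 16 that reached 20 CPM, 14 were 1.5-fold higher or more, with a median log2 ratio of 1.36 and a median of 1.18 for the same genes with PBS. B2m, the light chain shared by class I molecules, had 773, 2467, 1205 and 5405 CPM across 3-month PBS, 12-month PBS, 3-month bleomycin and 12-month bleomycin. Both 12-month libraries thus lay above both 3-month libraries, with a bleomycin ratio of 4.49 (4.43 to 4.55). The heavy chain genes H2-K1 and H2-D1 stood at 1148 and 3246 CPM and at 2310 and 4510 CPM in the 3-month and 12-month bleomycin libraries. H2-Q7, a non-classical heavy chain, had 7.43, 65.4, 25.8 and 342 CPM in the 4 libraries. H2-Q7, H2-Q6 and H2-T22 (6.29-fold, 5.40 to 7.35) belong to families of near-identical genes, and how the counting divided UMIs among the copies is uncertain.

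The genes that feed class I were higher too. Tap1, a subunit of the peptide pump, stood at 17.6 CPM at 3 months and 69.7 at 12 months with bleomycin, and its partner Tap2 at 24.8 and 46.7. The immunoproteasome subunit genes Psmb8, Psmb9 and Psmb10 were 2.70-fold, 2.63-fold and 1.83-fold higher. The proteasome activator genes had the smallest ratios: Psme1 stood at 373 and 471 CPM, a log2 ratio of 0.34, and Psme2 at 242 and 359. Nlrc5, the transactivator of class I genes, stayed low at 1.30 and 5.02 CPM.

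Class II genes had smaller ratios apart from H2-Eb1. All 8 listed genes were higher and 5 of the 7 at 20 CPM or more at least 1.5-fold, with a median log2 ratio of 0.65 (0.42 with PBS). Cd74, the invariant chain that escorts class II molecules, had 4376, 5362, 7216 and 11286 CPM across 3-month PBS, 12-month PBS, 3-month bleomycin and 12-month bleomycin, a bleomycin ratio of 1.56 (1.55 to 1.57). H2-Ab1, a class II beta chain gene, had 830, 1151, 1673 and 2692 CPM (1.61-fold, 1.59 to 1.63), and both bleomycin libraries exceeded both PBS libraries. H2-Eb1, the beta chain gene of the other class II molecule (chromosome 17, 34305867 to 34316674), had 23.3, 29.4, 36.8 and 524 CPM. It was 14.2-fold higher (13.2 to 15.3), and its log2 ratio with bleomycin exceeded that with PBS by 3.50 (3.25 to 3.75). The genotype is the same in all groups, but the strain background is not given in the sources used here. In the macrophages below the gate, 34 at 3 months and 209 at 12 months, H2-Eb1 stood at 73.9 and 1504 CPM, against 4193 and 4027 for H2-Ab1. Among ciliated cells H2-Eb1 stood at 10.2 CPM at 3 months and 378 at 12 months, so both reference cell types also had more of it in the 12-month library. Other MHC genes were higher in the 12-month ciliated cells as well: H2-Ab1 stood at 462 and 1655 CPM, Cd74 at 1913 and 5841 and B2m at 869 and 4684. In the macrophages Cd74 stood at 12638 and 11226 CPM and B2m at 2622 and 6742. Ciita, the transactivator of class II genes, stood at 4.85 and 5.90 CPM in the AT2 cells.

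Ly6 genes, which encode small lipid-anchored surface proteins, formed a further higher group. Ly6a, also known as Sca-1, had 6.88, 33.6, 29.2 and 305 CPM across 3-month PBS, 12-month PBS, 3-month bleomycin and 12-month bleomycin, and Ly6i had 3.49, 70.2, 27.7 and 338. Their bleomycin ratios were 10.5 (9.63 to 11.4) and 12.2 (11.2 to 13.3). For Ly6i the PBS ratio was larger still, with a log2 difference of -0.71 (-1.19 to -0.23) between bleomycin and PBS. Ly6c1, Ly6c2 and Ly6e were 2.51-fold, 2.72-fold and 1.72-fold higher, whereas Ly6d and Ly6k had log2 ratios of -0.36 and -0.16. Ly6a, Ly6c1, Ly6c2 and Ly6i are close copies on chromosome 15, and their separate values are uncertain.

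Within single cells, the interferon difference was broad and uneven. In cells thinned to 3000 UMIs, which left out 55 shallower 3-month cells and no 12-month cell, the interferon-stimulated genes gave a median of 1 UMI per cell at 3 months and 6 at 12 months (4 and 27 before thinning). The 90th percentiles were 3 and 19. Above the 99th percentile of the 3-month cells, 8 UMIs, lay 913 of 2450 12-month cells (37.3%, 35.3 to 39.2). The tenth of 12-month cells with the most UMIs held 31.0% of the list's UMIs, and 65 cells (2.65%) held none, against 613 (27.3%) of the 3-month cells. The class I list gave medians of 16 and 44 UMIs, and 51.3% of 12-month cells (49.3 to 53.3) exceeded the 3-month 99th percentile. For class II these were 32, 52 and 6% (5.09 to 7.01), and for Ly6 5, 9 and 17.8% (16.3 to 19.3).

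**Figure D4:**
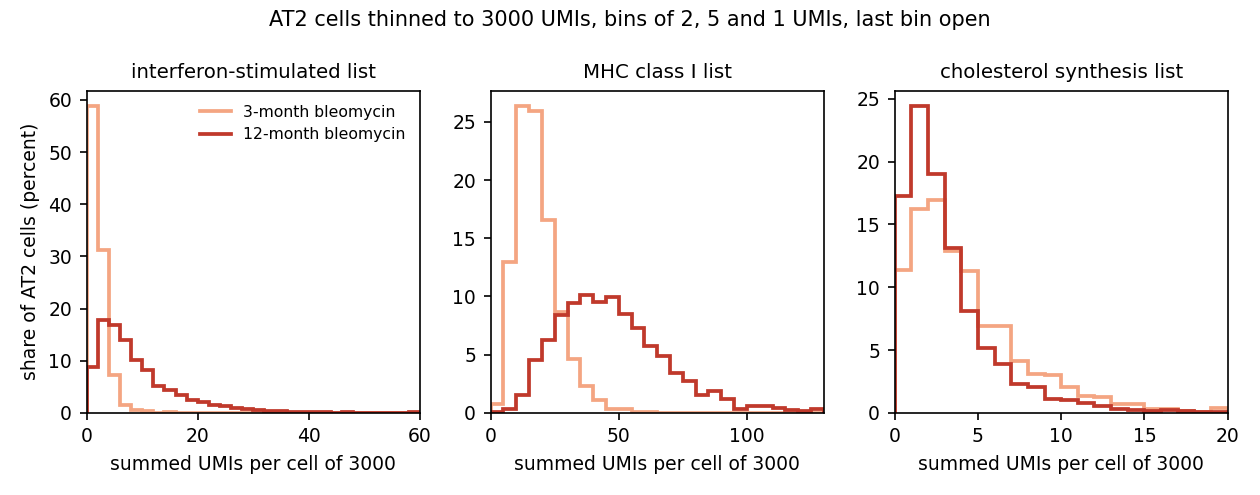
Share of AT2 cells (percent, y) by the summed UMIs of 3 gene lists in each cell thinned to 3000 UMIs (x), for the 3-month and 12-month bleomycin libraries. The 12-month distribution of interferon-stimulated genes is shifted and wide (median 6 against 1), that of MHC class I genes is shifted (44 against 16), and that of cholesterol synthesis genes is slightly lower (2 against 3).

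Cells rich in 1 of these groups tended to be rich in the others in the 12-month library. Across its 2450 thinned cells, the interferon-stimulated sum had a Spearman rho of 0.54 with the class I sum, 0.47 with Ly6, 0.32 with the GTPases and 0.31 with class II. Across the 2244 thinned 3-month cells these were 0.14, 0.08, 0.03 and 0.01. With the summed macrophage markers rho was -0.016 in the 12-month cells. These are descriptions across cells of 1 library that share free RNA. The low UMI counts of the 3-month cells limit their values.

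Ciliated cells below the gate showed the interferon genes too, cells that can express them as well. Isg15 stood at 4.36 CPM (3 UMIs) in those of the 3-month library and at 292 in those of the 12-month library, and Ifi27l2a at 11.6 and 669. A UMI of Isg15 was found in 28.2% of the thinned 12-month AT2 cells (26.4 to 29.99) and in 44.7% of the ciliated cells (30.2 to 59.9). Before thinning it was found in 55.0% of the AT2 cells. As for the blood cell markers, the AT2 share did not exceed the upper bound of the ciliated share. The part of free RNA in the Isg15 level was not tested. Cells with a UMI of a blood cell marker were also left out, on counts before thinning. Deeper cells were thus more likely to be dropped. No macrophage marker UMI was found in 34.9% of 12-month cells before thinning and 75.6% after. Cells that were kept can still hold free RNA, so the part of blood cell RNA in the interferon values was not measured. The same limit holds for every value below that leaves out such cells. Without cells holding any macrophage or leukocyte marker UMI (1833 and 734 cells left), the median log2 ratio of interferon-stimulated genes was 2.77 and that of class I genes 1.39. Without cells holding a UMI of any blood cell marker (1192 and 78 left, chosen after the data were seen) the medians were 2.33 and 1.19, and H2-Eb1 had a log2 ratio of 3.76. Igtp and H2-Q6 then had 2.69 and 1.90, against 3.38 and 2.66. With no gate on Sftpc, so that other cells were summed as well, the log2 ratio was 2.499 for Ifitm3 (3.69 with the gate), 2.65 for Oasl2 (3.25), 2.66 for Ly6a (3.38) and 5.37 for Iigp1 (6.23).

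The PBS libraries show which of the age differences were present without bleomycin, on other libraries. Among the 4526 genes that reached 20 CPM there, 39 (0.862%) were 2-fold higher or more at 12 months and 36 (0.795%) 2-fold lower or more. In all, 17 genes were at least 2-fold higher in both comparisons, 17.5% of the 97 with bleomycin and 43.6% of the 39 with PBS, among them B2m, H2-Q7, Ly6a, Ly6i, Lcn2 and Retnla. No gene was at least 2-fold lower in both. For some lists the medians of the 2 comparisons were apart by at least 1 on the log2 scale. Interferon-stimulated genes had 2.73 with bleomycin and 1.01 with PBS, GTPases 2.48 and 0.53, and proliferation genes 0.91 and -0.55. Heat shock genes had 0.04 and -1.07, and clock genes -0.40 and 0.72. These genes were chosen at 20 CPM in either bleomycin library, which can widen the gap to PBS. Of the interferon-stimulated genes 10 of 15 reached it at 12 months alone, as did all 4 GTPases and 4 of 8 proliferation genes. Of the 8 clock genes 3 reached it at 3 months alone. Genes at 20 CPM in the 3-month bleomycin library had bleomycin medians of 2.34 (interferon-stimulated) and 0.60 (proliferation).

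**Figure D5:**
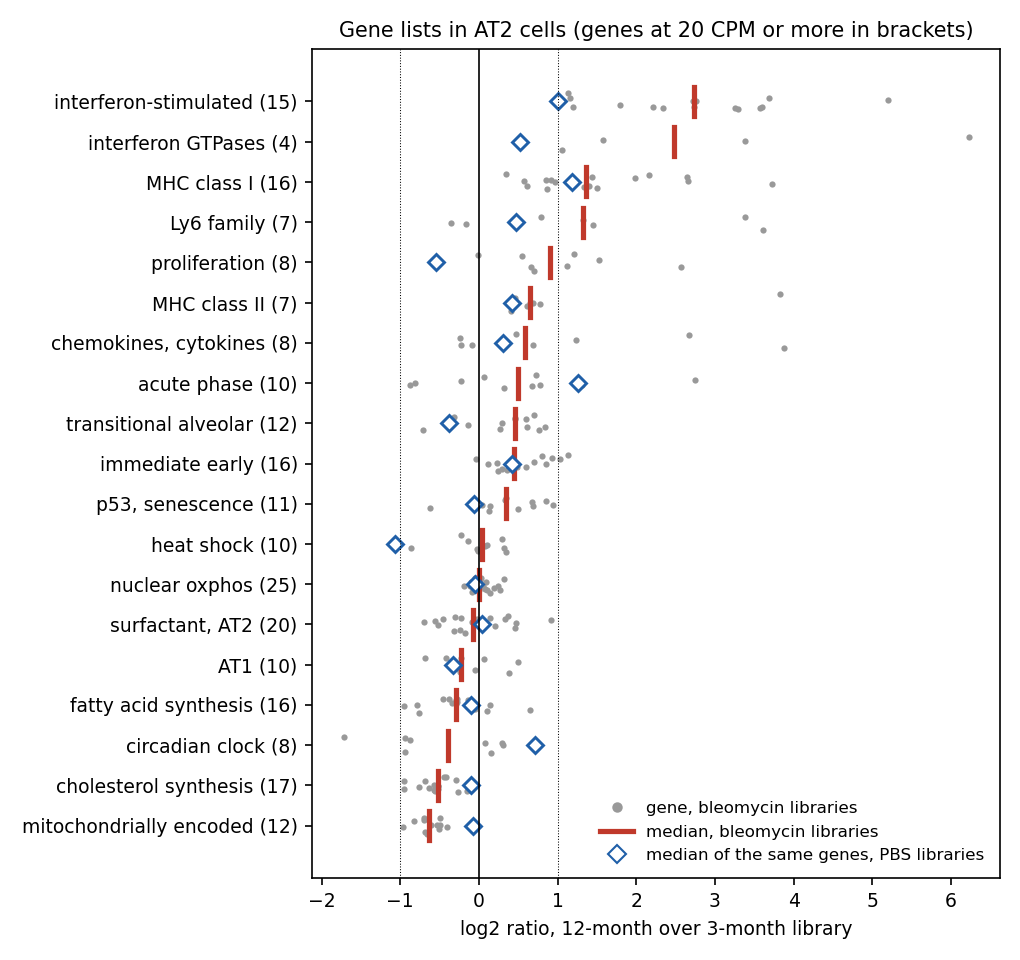
Log2 ratio of the 12-month over the 3-month library for genes of 19 lists at 20 CPM or more (grey points, bleomycin libraries; number of genes in brackets), with their median (red bar) and the median of the same genes in the PBS libraries (blue diamond). Interferon-stimulated genes have a median of 2.73 with bleomycin and 1.01 with PBS, class I genes 1.36 and 1.18, and acute phase genes 0.49 and 1.26. The genes were chosen by their level in the bleomycin libraries and not in the PBS libraries.

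Neutrophil-attracting chemokines and stress genes were higher. Cxcl2 had 2.11, 8.73, 10.3 and 152 CPM across 3-month PBS, 12-month PBS, 3-month bleomycin and 12-month bleomycin, a bleomycin ratio of 14.7 (12.9 to 16.97). Cxcl1 had 5.32, 32.8, 27.2 and 173 CPM (6.37-fold, 5.84 to 6.96). Both were highest in the 12-month bleomycin cells, of which 19.9% (18.4 to 21.6) held a Cxcl2 UMI after thinning against 1.43% (0.977 to 2.01) at 3 months (42.6% and 4.13% before thinning). Cxcl15, the lung-specific chemokine of AT2 cells, stood at 8375 and 11627 CPM, and Cxcl16 and Cxcl17 had log2 ratios of -0.24 and -0.08. Without any cell holding a blood cell marker the Cxcl2 log2 ratio was 3.67, against 3.88, and the list median 0.31, against 0.58. Of the 8 list genes at 20 CPM, 3 reached it in the 12-month library alone, and the other 5 had a median of -0.08. The NF-kB targets Ier3 (29.8 and 119 CPM), Nfkbia, the inhibitor that feeds back on the pathway (100.3 and 304), and Nfkbiz (14.4 and 41.1) were 3.996-fold, 3.03-fold and 2.86-fold higher. The remaining 5 of 8 NF-kB list genes at 20 CPM, Icam1 and Sod2 among them, lay within 0.25 of 0 on the log2 scale. The log2 ratio of Nfkbia was 0.91 without cells holding any blood cell marker, against 1.60, and that of Atf3 0.40, against 1.04. Of 16 immediate early genes 15 were higher and 7 at least 1.5-fold, Junb (222 and 486 CPM) and Atf3 (62.4 and 128) at least 2-fold. Immediate early genes can also respond to tissue dissociation, and no value here separates the sources.

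Acute phase genes did not move together. Lcn2, an iron-sequestering defence protein, had 256, 934, 1942 and 4806 CPM across 3-month PBS, 12-month PBS, 3-month bleomycin and 12-month bleomycin (2.47-fold, 2.45 to 2.502). Retnla, a resistin-like cytokine, had 11.6, 291, 63.7 and 429 CPM, so that it was higher in both 12-month libraries and highest in the 12-month bleomycin library. Its bleomycin ratio was 6.74 (6.37 to 7.14), smaller than its PBS ratio by 1.90 on the log2 scale, a difference of -1.90 (-2.17 to -1.63). The Retnla log2 ratio was 2.75 in the gated cells, 1.53 with the gate at 2% Sftpc and 0.86 with no gate. The tenth of 12-month bleomycin cells with the most UMIs held 82.3% of its UMIs. Lrg1 and Saa3 had log2 ratios of 0.31 and 0.06. Hp, haptoglobin, stood at 823 and 449 CPM and was 1.83-fold lower at 12 months (1.79 to 1.87).

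Genes of dividing cells were higher in few cells. Of the 22 listed proliferation genes, 20 were higher, and 6 of the 8 at 20 CPM at least 1.5-fold. As 4 of these 8 reached 20 CPM in the 12-month library alone, the median of 0.91 compares with 0.60 over the other 4. Cdc20, which triggers anaphase, had 7.62, 3.54, 9.89 and 28.5 CPM across 3-month PBS, 12-month PBS, 3-month bleomycin and 12-month bleomycin. Stmn1, a microtubule regulator, had 103, 60.2, 59.95 and 138 CPM. The 12-month library was thus the lower one with PBS and the higher one with bleomycin for both. A Cdc20 UMI was found in 1.65% of thinned 3-month cells (1.16 to 2.27) and 4.04% of 12-month cells (3.296 to 4.90), or in 4.35% and 10.8% before thinning. Top2a and Mki67 stayed low, at 3.12 and 6.75 CPM and at 3.07 and 5.97. Without cells holding a macrophage or leukocyte marker the list median was 0.45, against 0.91, and the Ube2c log2 ratio 0.30, against 2.57.

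Genes of the transitional state that AT2 cells pass through on the way to AT1 cells, and p53 targets, were modestly higher. Of 12 transitional genes that reached 20 CPM, 5 were at least 1.5-fold higher and 1 lower (median log2 ratio 0.46, -0.38 with PBS). Krt18 and Krt8, the simple epithelial keratins, stood at 298 and 456 CPM and at 251.1 and 345. Clu, encoding the chaperone clusterin, stood at 303 and 490 CPM, and Sfn, a 14-3-3 protein induced by p53, at 50.5 and 85.9. S100a6 went the other way, at 179 and 110 CPM, with a log2 ratio of -0.09 without cells holding any blood cell marker. Cldn4, a claudin that marks the transitional state, stood at 5.28 and 7.10 CPM. Of 11 genes of the p53 and senescence list at 20 CPM, 4 were at least 1.5-fold higher and 1 lower. Their median log2 ratio was 0.35 (-0.07 with PBS), and 2 of the 11 reached 20 CPM in the 12-month library alone. The cell cycle inhibitor Cdkn1a had 76.7, 49.6, 135 and 242 CPM across 3-month PBS, 12-month PBS, 3-month bleomycin and 12-month bleomycin (1.7997-fold, 1.72 to 1.88), Bax 79.6, 76.1, 141 and 227, and Phlda3 17.9, 18.0, 59.5 and 94.7. For each of these 3 both bleomycin libraries lay above both PBS libraries, with the 12-month one on top. Cdkn2a, the p16 and p19ARF locus, stayed low at 0.960 and 3.58 CPM. AT1 genes did not follow: 7 of the 10 at 20 CPM were lower, Ager stood at 1975 and 2056 CPM and Aqp5 at 615 and 522, and Vegfa was 1.61-fold lower (1.48 to 1.75).

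The imprinted gene Nnat, encoding the membrane proteolipid neuronatin, had 39.9, 36.2, 41.9 and 132 CPM across 3-month PBS, 12-month PBS, 3-month bleomycin and 12-month bleomycin. The first 3 libraries lay close together and the last was 3.15-fold above the 3-month bleomycin library (2.93 to 3.40). The imprinted non-coding RNA Meg3 was near 0 with PBS, at 0.0918 and 1.13 CPM, and stood at 36.2 and 77.8 CPM with bleomycin. A UMI of it was found in 6.49% of the 12-month cells and 3.83% of the 3-month cells after thinning, and in 12.4% and 6.92% before. The metallothionein genes Mt2 (34.9, 15.8, 35.1 and 105 CPM) and Mt1 (300, 183, 235 and 361 CPM), which bind zinc, were lower at 12 months with PBS and higher with bleomycin.

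Genes with high ratios outside these groups included several that blood cells express. Wfdc17, a gene known from macrophages, stood at 1.44 and 23.9 CPM in the 3-month and 12-month bleomycin libraries. Ctss, the protease cathepsin S that trims the class II invariant chain, stood at 3.79 and 31.6 CPM. Without cells holding any blood cell marker their log2 ratios were 2.64 and 1.32, against 4.03 and 3.05. AW112010, a transcript induced in inflammation, had 0.459, 10.6, 3.98 and 53.3 CPM in the 4 libraries and kept a log2 ratio of 3.71 in those cells. With no gate on Sftpc the log2 ratios of Wfdc17, Ctss and AW112010 were 2.65, 2.43 and 2.34.

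By ratio, Cox6a2 stood first among the lower genes. Cox6a2, the muscle-type subunit of cytochrome c oxidase (chromosome 7, 128205435 to 128206387), had 266 CPM in 3-month PBS, 323 in 12-month PBS, 194 (188 to 200.1) in 3-month bleomycin and 53.9 (51.4 to 56.5) in 12-month bleomycin. It was 3.60-fold lower at 12 months with bleomycin (3.40 to 3.81), and the 12-month bleomycin library was the only one below 190 CPM. Cbr2, a carbonyl reductase abundant in lung, had 3558, 3976, 2788 and 983 CPM (2.84-fold lower, 2.80 to 2.87). A Cbr2 UMI was found in 97.1% of thinned 3-month cells (96.3 to 97.7) and 75.2% of 12-month cells (73.5 to 76.9), against 99.7% and 95.9% before thinning. Cst8, a cystatin family gene, had 119, 164, 48.8 and 17.4 CPM. Its level was lower in both bleomycin libraries and lowest at 12 months. Bex2, a brain-expressed X-linked family gene, had 491, 576, 106 and 47.8 CPM and kept the same order.

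The list of lipid uptake and lipolysis genes was split, with 3 of 6 at 20 CPM higher, 3 lower and a median log2 ratio of -0.02. Single genes with roles in lipid handling were lower. Mfsd2a, a transporter of lysophosphatidylcholine, had 21.7, 29.9, 66.1 and 25.7 CPM across 3-month PBS, 12-month PBS, 3-month bleomycin and 12-month bleomycin. Here the 3-month bleomycin library stood apart as the highest, with a 2.57-fold lower level at 12 months (2.35 to 2.80). Its log2 ratio was -0.54 without cells holding any blood cell marker, against -1.36. Apoe, the apolipoprotein that carries cholesterol, had 631, 1237, 1018 and 504 CPM (2.02-fold lower, 1.98 to 2.06), and its log2 ratio was -0.52 with no gate on Sftpc, against -1.02. Ffar4, a receptor of long-chain fatty acids, had 67.7, 80.5, 65.0 and 29.8 CPM, and Lpar3, a receptor of lysophosphatidic acid, 15.9, 19.6, 20.5 and 7.41. For both the 12-month bleomycin library was the lowest. Fabp5, a fatty acid carrier, stood at 2075 and 1398 CPM, while Plin2, which coats lipid droplets, was 1.56-fold higher (1.48 to 1.65).

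Cholesterol synthesis genes were lower as a list: all 22 had a log2 ratio below 0, where 7006 of all 13782 genes with at least 10 UMIs did. Of the 17 that reached 20 CPM, 5 were at least 1.5-fold lower and none higher, with a median of -0.52 (-0.10 with PBS). Insig1, the sterol-regulated brake on this pathway, had 158, 124, 103 and 53.1 CPM across 3-month PBS, 12-month PBS, 3-month bleomycin and 12-month bleomycin (1.93-fold lower, 1.81 to 2.06). Both bleomycin libraries lay below both PBS libraries, with the 12-month one lowest. The synthesis enzyme gene Fdps stood at 334 and 196 CPM with bleomycin and was 1.70-fold lower (1.64 to 1.76). Srebf2, the regulator of the pathway, stood at 41.1 and 27.8 CPM. The sterol element was found in 1 of 15 matched genes of this list (6.67%), against 1.44% of all genes.

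Fatty acid and phospholipid synthesis genes had a median log2 ratio of -0.29, with 13 of 16 below 0. Scd1, the desaturase that makes monounsaturated fatty acids, had 5615, 6232, 5851 and 3020 CPM across 3-month PBS, 12-month PBS, 3-month bleomycin and 12-month bleomycin, 1.94-fold lower at 12 months with bleomycin (1.92 to 1.95). The other 3 libraries lay close together. Scd2 (601 and 355 CPM) and the regulator Srebf1 (87.9 and 50.9) were 1.69-fold and 1.73-fold lower, Fasn stood at 669 and 548, and Chka, which starts phosphatidylcholine synthesis, was 1.56-fold higher (1.49 to 1.64). Without cells holding any blood cell marker the log2 ratio of Scd1 was -0.52.

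Of the 8 clock genes at 20 CPM, 4 were higher and 4 lower at 12 months with bleomycin, each of the 4 lower ones at least 1.5-fold, with a median log2 ratio of -0.40. Over the 17 listed genes with at least 10 UMIs the median was 0.07, with 9 higher. Dbp, an output factor of the clock, had 4.59 CPM in 3-month PBS, 48.5 in 12-month PBS, 111 in 3-month bleomycin and 33.7 in 12-month bleomycin, so it was 3.298-fold lower at 12 months with bleomycin (3.07 to 3.55). Tef, of the same family, had 7.80, 21.97, 24.96 and 12.97 CPM, Per3 7.34, 15.4, 33.3 and 17.3, and Nr1d2 13.4, 35.0, 32.2 and 17.6. These 4, the lower ones of the list, were each higher at 12 months with PBS. The log2 ratios of Tef and Nr1d2 were -0.49 and -0.53 without cells holding any blood cell marker. Arntl, which is out of phase with Dbp, stood at 2.69 and 6.78 CPM. The hour of harvest is not given in the sources used here.

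Within the gated cells, genes of AT2 identity stood close to equal. The gate kept cells by Sftpc, so this is no test of kept identity. Of cells that passed the other filters, 325 (12.4%) at 3 months and 543 (18.1%) at 12 months with bleomycin lay below the gate. Of 20 surfactant and AT2 genes, 1 was at least 1.5-fold higher and 1 lower (median log2 ratio -0.07). Sftpa1, Sftpb and Sftpd, the other surfactant proteins, had log2 ratios of -0.05, -0.03 and 0.45, Abca3, the lipid pump of lamellar bodies, -0.24, and the transcription factors Nkx2-1 and Etv5 -0.23 and -0.52. Chil1, a chitinase-like protein, had 184, 664, 919 and 1739 CPM across 3-month PBS, 12-month PBS, 3-month bleomycin and 12-month bleomycin, and Lyz1 had 13673, 10981, 8640 and 5312. These were the highest and the lowest of the list by ratio. The 25 nuclear oxidative phosphorylation genes had a median of 0.00, whereas all 12 mitochondrially encoded genes at 20 CPM were lower, with a median of -0.63. That median was -0.13 without cells holding any blood cell marker. Heat shock genes had a median of 0.04 with bleomycin against -1.07 with PBS: Dnajb1 had 104, 36.9, 39.5 and 49.5 CPM, so that the 3-month PBS library alone stood high. Several list medians lay within 0.15 of 0, near the median of all genes at 0.00. These were unfolded protein (0.09), lysosome (0.08), NRF2 (0.06), glycolysis (0.12), TGF-beta and matrix (0.09) and cell junction (-0.10). Of the 12 glycolysis genes at 20 CPM, 10 were above 0 and 2 below. Gapdh (638 and 1072 CPM) and Eno1 (68.6 and 109 CPM) were at least 1.5-fold higher.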

How the data were processed

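The deposited values were UMI counts of each gene in each cell barcode, and the files hold whole numbers with no sign of scaling. The submitters' processing notes name Cell Ranger, without a version, the mouse build mm10 and Seurat 3.2.2. Per the labels' protocols, a 10x Genomics 3' kit was used and 3 mice were pooled per library. The chosen cells and the gene lists were picked with earlier results of these data known.

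Counts were summed over the chosen cells of each library and scaled to CPM (Python 3.11.15, numpy 2.4.6, scipy 1.17.1, pandas 2.3.3, figures with matplotlib 3.10.9). One UMI equals 0.0480 CPM in the 3-month and 0.0314 in the 12-month bleomycin library. Log2 ratios use a prior of 0.5 counts. Ratio intervals are conditional-binomial, those of levels Poisson and those of shares Clopper-Pearson, all exact at 95%. Intervals of the difference between the bleomycin and PBS ratios come from the counting errors of both by a normal approximation. No test was possible with 1 library per group. Lists (40 of pathways and 15 of markers) were described by members at 20 CPM or more in either library, counted from 1.5-fold, and also by members with at least 10 counts. The listed symbols Rian and Bex3 were not analysed here. Cells were thinned to 3000 UMIs where UMIs per cell or shares of cells with a gene are compared. Counts of cells by number of markers, and values marked as before thinning, are not thinned. Doublets were called with Scrublet in scanpy 1.11.5 (56 and 72 barcodes at 0.8% per 1000 barcodes) and kept, except in an alternative. The intervals and thinning were tested on simulated data.

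The rule for named genes took the 15 highest and the 15 lowest ratios past 2-fold whose interval leaves out 1, and up to 4 genes per list with the ratio farthest from 1. It passed over markers of other cell types and genes that are predicted, sex-linked, mitochondrial or that encode immunoglobulin, haemoglobin or ribosomal proteins. Other genes in the text are list members or markers, chosen after their values were seen. GENCODE M21 on GRCm38 gave the coordinates and held 27645 of the 27998 gene identifiers (98.7%). Promoters are from RefSeq on GRCm38.p6. Some list members are not reported here.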

Additional observations from a re-analysis of the deposited data

Results flagged for a closer look

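In 14 of the genes that the naming rule took, which passes over markers of other cell types, the 12-month to 3-month ratio lay on one side of 1 with bleomycin and on the other side with PBS, each by at least 1.5-fold. With 1 library per group, the difference between the comparisons was not tested in any of them. Ube2c had a log2 ratio of 2.57 with bleomycin and -6.30 with PBS, where the 12-month library held 2 UMIs, and Hist1h2ap 1.11 and -5.84. Mt2 had 1.58 and -1.14, Mt1 0.62 and -0.71, Cdc20 1.52 and -1.10 and Stmn1 1.21 and -0.77. Cyr61, a YAP target, had 0.91 and -0.62, and Cdkn1a 0.85 and -0.63. In the other direction, Dbp had -1.72 with bleomycin and 3.39 with PBS, Tef -0.94 and 1.49, Per3 -0.94 and 1.07, and Nr1d2 -0.87 and 1.38. Fgg, a fibrinogen chain gene, had -0.81 and 1.45, and Apoe -1.02 and 0.97. The Fgg log2 ratio with bleomycin was 1.04 without cells holding any blood cell marker, where 78 cells were left at 12 months. As Fgg stood at 15.7 CPM over all 12-month bleomycin cells, that value is uncertain.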

How the results depend on the processing

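No paired analysis was possible because each group is 1 library, and no library could be left out. Of the 15 alternatives, those that changed the scaling, the Sftpc gate, the filter on cells, the doublets, the weight of cells or the depth kept the counts within 1.5 times of 97 higher and 21 lower genes. With a minimum of 100 CPM the counts were 37 higher and 8 lower, and with no minimum beyond 10 counts 1082 and 397. Without cells holding any blood cell marker (78 cells left at 12 months, an alternative chosen after the data were seen) they were 115 and 96. Both counts were larger, and the higher genes made up 54.5% of both in place of 82.2%. Of the full set, 64 of the 97 and 8 of the 21 genes were shared. The filters on blood cell markers used counts before thinning, so values after them can also reflect the depth of the cells. Of the 54 named genes past 2-fold, 52 kept their sign throughout. Hist1h2ap had a log2 ratio of -0.21 without cells holding a macrophage or leukocyte marker and -0.68 without cells holding any blood cell marker, and Ccl6 one of -0.10 in the latter. In every alternative 34 of the 54 stayed past 2-fold. The 9 lists with a median past 1.5-fold kept their sign throughout and 4 of them stayed past 1.5-fold. Depth limits the PBS values most, as those libraries held the fewest UMIs.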
